A study of Mus musculus with 18 samples.

Results

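The broadest intervals of a deposited list of H3K4me3 sites in mouse spermatocytes are described here. They were the autosomal intervals at or above 2735 bp (end minus start) in the deposited list of H3K4me3 intervals common to C57BL/6J and Ewsr1-CKO cells, which is the widest 5% of that list. The list held 5567 distinct intervals, of which 5468 lay on autosomes, and 275 of these passed the width threshold. The remaining 5193 autosomal intervals served for comparison.

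Chromatin immunoprecipitation and sequencing (ChIP-seq) had been performed on spermatocytes of mice at 14 days post-partum, in 18 samples of 12 groups. Columns of 5 groups, comprising 10 samples, were used. DMC1 was given in C57BL/6J mice (B6), in mice labelled Ewsr1-CKO with Stra8-iCre (Ewsr1 CKO), which lack Ewsr1 where the germ-cell driver Stra8 expresses the Cre recombinase, and in Prdm9+/- mice (Prdm9 het), which carry a single intact Prdm9 allele. H3K4me3 and H3K36me3 were used in Ewsr1 CKO only, so mark levels below say nothing of a difference between genotypes. Each group had 2 samples but a single deposited column, so no value has a replicate spread, and every difference below describes the authors' columns and was not set against variation between animals. The tables hold no expression values, and the labelled cell type was not checked against markers. All levels are in RPM, the number of reads scaled to the library. The 95% intervals of medians come from order statistics over sites, treat sites as independent and cover no biological error. The interval of a difference is that of the broadest median, with the median of the others held fixed.

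H3K4me3 is a histone mark known from active promoters. In meiotic prophase the methyltransferase PRDM9 binds specific DNA motifs through its zinc fingers and places H3K4me3 together with H3K36me3 on the flanking nucleosomes, which marks the sites where programmed DNA double strand breaks form. DMC1, the meiotic recombinase, coats the single-stranded DNA of those breaks, so that a site's DMC1 level reflects break-associated DNA. EWSR1 is an RNA-binding protein of the FET family.

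Few coding-gene starts lay in the list at all, those of 22 of 20151 autosomal coding genes (0.109%). Shares of promoters thus describe this list and not all H3K4me3 of the cells. The share of broadest intervals that hold a promoter was not distinguishable from that of the list. Annotated gene starts (RefSeq, GRCm38.p6) fell in 2 of 270 of them (0.741%, Wilson 95% interval 0.203 to 2.66%), beside 59 of 5029 other intervals (1.17%) and 1.15% of all. Starts were looked up for 270 of the 275. Both intervals hold starts of predicted genes. The 300 bases from 250 before to 50 after a start are printed for each gene because they are the annotated promoters of these intervals. For Gm30501, which has a further annotated start 6 bp downstream, the first window is shown. Capitals mark CG dinucleotides.
Gm46165, chr1:154103613-154103912, plus strand: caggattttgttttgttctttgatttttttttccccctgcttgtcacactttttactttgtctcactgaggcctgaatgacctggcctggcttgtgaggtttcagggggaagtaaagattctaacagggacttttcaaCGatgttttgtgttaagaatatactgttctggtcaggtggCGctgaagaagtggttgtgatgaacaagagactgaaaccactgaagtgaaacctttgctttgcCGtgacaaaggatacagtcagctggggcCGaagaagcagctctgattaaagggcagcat
Gm30501, chr7:125210165-125210464, plus strand: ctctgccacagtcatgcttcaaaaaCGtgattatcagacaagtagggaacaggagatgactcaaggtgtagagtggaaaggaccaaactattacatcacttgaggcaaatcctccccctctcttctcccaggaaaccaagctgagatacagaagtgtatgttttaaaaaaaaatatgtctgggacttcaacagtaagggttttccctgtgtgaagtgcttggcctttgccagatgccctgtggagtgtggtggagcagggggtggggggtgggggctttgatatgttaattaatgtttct
The Gm46165 window held 4 CG dinucleotides at a GC content of 44.3%, and the Gm30501 window held 1 at 46%, against medians of 7 and 52.7% over 32851 promoter windows of the same length in the table. The Gm46165 window lay inside the interval on chromosome 1 from 154102127 to 154105625, with the annotated start 13 bp from the interval's centre. DMC1 there read 323 RPM for B6, 185 RPM for Ewsr1 CKO and 84.5 RPM for Prdm9 het. The Gm30501 interval, chromosome 7 from 125209028 to 125212079, had weaker DMC1 of 39.0, 49.6 and 12.3 RPM in the same order.

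Gene bodies were met about as often as elsewhere, and starts lay nearby at a lower share. A protein-coding gene overlapped 168 of 270 broadest intervals (62.2%) and 2881 of 5029 others (57.3%), against 57.5% of all. The annotation used gives gene bodies only, so exons, introns and UTRs were not assigned. Starts within 5 kb were found for 22 of the 270 (8.15%, Wilson 5.44 to 12.0%) and for 13.7% of the others (12.8 to 14.7%), and the median distance to the nearest start was 31.8 kb (24.5 to 38.4) and 28.4 kb (27.0 to 30.0). Either outer end of a coding gene lay in 8 of the 275 (2.91%) and in 2.29% of the others. The 8 genes were Ube2k, Ccdc50, Hnrnpk, Ap3d1, Vmn1r184, Arel1, Lrrc42 and Vwf. No start or body of 33 genes of meiotic break formation, synapsis and PRDM9 partners (such as Spo11, Sycp3, Hormad1 and Zcwpw1) fell in a broadest interval. The bodies of Msh4, a MutS homologue of crossover formation, and Cdyl, a chromodomain protein, met narrower intervals. Of 20151 autosomal coding genes, 0.794% met a broadest interval with their body and 0.00% with a listed start, and 11.7% met any interval with their body. Starts were not listed for all of these genes. Counts of 0 and 2 among 33 are thus not read as particular to the 33 genes. A microRNA hairpin lay in 2 of the 270 (0.741%) and in 5 of 5029 others (0.0994%). The 2 were Mir7-1 at chromosome 13 from 58392779 to 58392886, within Hnrnpk, and the predicted Gm51275.

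The broadest intervals had a median width of 3013 bp (quartiles 2827 and 3384, highest 11946), against 1731 bp in the others (quartiles 1445 and 2028). They carried more of both marks per unit length. Median H3K4me3 was 2.54 RPM, against 0.965 RPM in the others, and 0.843 RPM per kb (95% interval 0.773 to 0.886), against 0.574 RPM per kb (0.566 to 0.581), a 1.47-fold ratio of densities. The density exceeded the others' upper quartile of 0.745 RPM per kb in 164 of 275 (59.6%) and lay below their median in 40 (14.5%), so the distributions overlapped widely. Width was called from the same H3K4me3 signal, and the part of this difference that comes from calling was not tested.

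H3K36me3 is a second mark of the same intervals. Median H3K36me3 was 3.68 RPM in the broadest intervals and 1.33 RPM in the others, or 1.16 RPM per kb (1.11 to 1.26) against 0.768 RPM per kb (0.758 to 0.780), a 1.51-fold ratio. It exceeded the others' upper quartile of 1.11 RPM per kb in 152 of 275 (55.3%) and lay below their median in 40. The broadest intervals were 5.03% of the autosomal list and 8.97% of its summed width, and held 12.0% of its H3K4me3 and 11.8% of its H3K36me3. The balance between the marks was nearly that of the other intervals. The median log2 ratio of H3K36me3 over H3K4me3 was 0.45 (0.37 to 0.50, 274 intervals with a value above 0) against 0.39, a difference of 0.065. Its interval, −0.015 to 0.11 with the median of the others held fixed, includes 0. That call depended on the settings. It was 0.088 (0.052 to 0.16) for the widest 10% and 0.16 (0.043 to 0.21) without intervals in the lower quartile of H3K4me3 density. Both of these intervals lie above 0. H3K4me3 is the denominator of the ratio, so the latter filter acts on the ratio itself.

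The higher densities did not begin at the width threshold. In the next widest 5% (272 intervals, median width 2583 bp) H3K4me3 was 0.736 RPM per kb and H3K36me3 1.03 RPM per kb. The 3 intervals just inside the threshold were all 2735 bp wide, on chromosomes 11 (from 105895792), 16 (from 44751122) and 8 (from 33347273), with H3K4me3 densities of 0.627, 0.758 and 0.879 RPM per kb. The 3 just outside were 2734, 2733 and 2731 bp wide, on chromosomes 2 (from 146635339), 16 (from 26783653) and 10 (from 75679941), with 0.854, 0.450 and 1.38 RPM per kb. Width and density had a Spearman's rho of 0.13 for H3K4me3 and 0.14 for H3K36me3 over the 275 intervals, whose range of width was cut short by the choice, and of 0.26 and 0.33 over the others. The intervals share a library and are not independent replicates. H3K4me3 and H3K36me3 density had a rho of 0.38 there and 0.38 in the others.

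**Figure D1:**
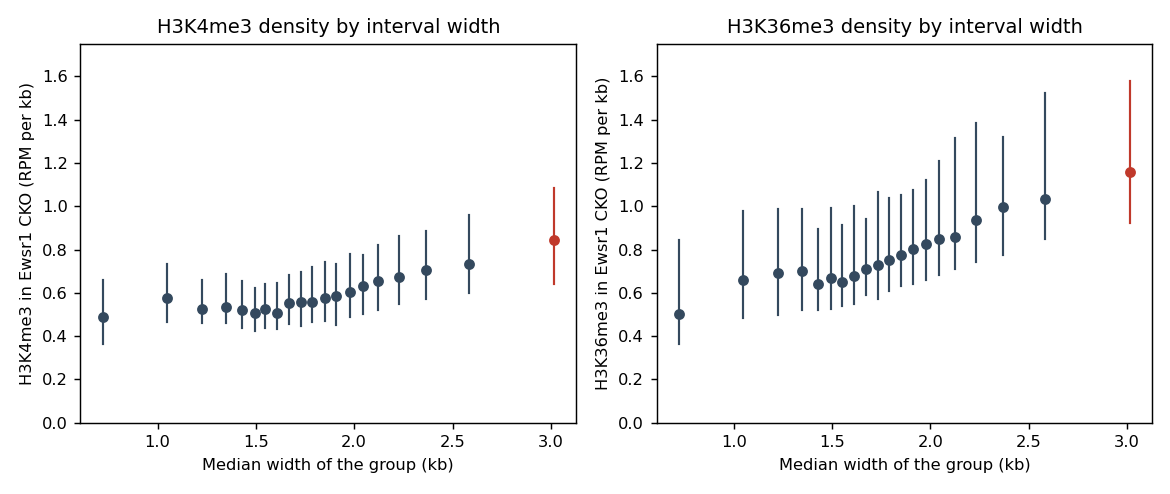
H3K4me3 (left) and H3K36me3 (right) density in Ewsr1 CKO, in RPM per kb, for autosomal intervals ranked by width into 20 groups of near-equal size; points are group medians, bars run from the lower to the upper quartile, and the widest group is red. H3K4me3 density is near 0.5 to 0.6 RPM per kb up to a width of about 2 kb and highest in the widest group, at 0.843 RPM per kb, while H3K36me3 density reaches 1.16 RPM per kb.

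The widest interval of all stood on chromosome 8 from 46997869 to 47009815, 11946 bp long and overlapping Enpp6, which encodes a choline-specific phosphodiesterase. It had 8.76 RPM H3K4me3 and 11.7 RPM H3K36me3, yet its single DMC1 site was only 1064 bp wide and the weakest of the set in B6, at 7.84 RPM, beside 10.6 for Ewsr1 CKO and 1.31 for Prdm9 het. The next was far narrower, 5424 bp on chromosome 4 from 139204945 to 139210369 within Capzb, a subunit of the actin capping protein. It held the highest H3K4me3 of the set (9.90 RPM, 1.83 RPM per kb) and 9.15 RPM H3K36me3. The third, 5153 bp on chromosome 7 from 88264464 to 88269617, had the lowest H3K4me3 density of the set, 0.210 RPM per kb, and yet 254 RPM DMC1 in B6. The other 7 of the widest 10 ranged from 4377 to 5141 bp and overlapped Trip12, Myt1, Lyst, Tanc2, Ttk, Nrg1 and Nf1.

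The highest H3K4me3 density of the set, 2.32 RPM per kb, was found on chromosome 2 from 120064938 to 120068070, within the beta-spectrin gene Sptbn5. An interval on chromosome 6 from 140588852 to 140593128 within Plekha5 followed at 2.04 RPM per kb. Within the set H3K36me3 exceeded H3K4me3 most in Ube2k, a ubiquitin-conjugating enzyme gene (3.98-fold, chromosome 5 from 65595102), in the DNA helicase gene Ercc6l2 (3.85-fold, chromosome 13 from 63848149) and in the netrin receptor gene Neo1 (3.75-fold, chromosome 9 from 58985595). The lowest ratios of the set were at antigen receptor loci. On chromosome 14 from 53322724 to 53326029, in the T cell receptor alpha locus Tcra, H3K36me3 was listed at 0 beside 0.832 RPM H3K4me3. A second Tcra interval (chromosome 14 from 53714447 to 53718355) had a ratio of 0.266, and an interval in the immunoglobulin heavy chain locus Igh (chromosome 12 from 113698409 to 113701512) had 0.287.

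Overlap with a coding gene went with H3K36me3. Median H3K36me3 was 1.42 RPM per kb (1.33 to 1.54) in the 168 broadest intervals in a coding gene and 0.941 RPM per kb (0.878 to 0.982) in the 101 outside coding genes with H3K36me3 above 0. H3K4me3 differed less, 0.882 RPM per kb (0.784 to 0.971) against 0.794 (0.727 to 0.875), and those intervals overlap. In the others H3K36me3 was 0.986 RPM per kb in coding genes and 0.630 outside, and H3K4me3 was 0.600 (0.592 to 0.611) and 0.543 (0.536 to 0.551). Within either class the broadest intervals had the higher median density of both marks. H3K36me3 is also known as a mark of transcribed gene bodies, and the share of it that each source adds here was not tested.

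Almost every broadest interval held exactly 1 DMC1 site. Of the 275, 272 met 1 site of the DMC1 list by at least 1 bp (98.9%, Wilson 96.8 to 99.6%), 3 met none and 0 met 2. Of the others 4620 met 1, 2 met 2 and 571 met none (11.0%), and 89.5% of all autosomal intervals met at least 1. In the next widest 5%, 261 of 272 met 1, 1 met 2 and 10 met none. A wider interval meets more sites by length alone. Per 100 kb the broadest intervals held 30.9 sites and the others 51.8, since both rarely held more than 1. The direction turned where the whole site had to lie inside the interval (a log2 difference in sites per kb of 4.34, against −0.74), a rule that only 43 pairs among the others met. No broadest interval spanned more than 1 listed site.

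The 3 without a listed site were the Tcra interval on chromosome 14 from 53322724, which was also the one with no H3K36me3, and 2 on chromosome 17. The latter were 3058 bp from 10278315 within Qk, an RNA-binding protein gene, and 3027 bp from 27453098 within Grm4, a glutamate receptor gene. Unlike the Tcra interval, both of these carried H3K36me3, at 1.95 and 0.826 RPM per kb. Their nearest listed DMC1 sites were 862 and 1110 kb away. The DMC1 list holds sites common to B6, Ewsr1 CKO and Prdm9 het. DMC1 at a site not shared by these genotypes would therefore not be seen here.

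The broadest intervals and their DMC1 sites were nearly concentric, and the interval reached past the site. Centres lay a median of 167 bp apart (146.5 to 189), against 136 bp (130.5 to 140.5) in the others. The interval lay wholly within its DMC1 site in 35 of 272 cases (12.9%), against 3720 of 4624 in the others (80.4%), and wholly contained the site in 86 (31.6%), against 43 (0.930%). The interval extended beyond the site's ends by a median of 306.5 bp in sum, against 0 bp. Since the members were chosen by width these shares partly follow from the rule. The DMC1 sites, whose extent the rule did not use, were themselves wider, at a median of 2901 bp (2847 to 2955) against 2578 bp (2565 to 2589).

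**Figure D2:**
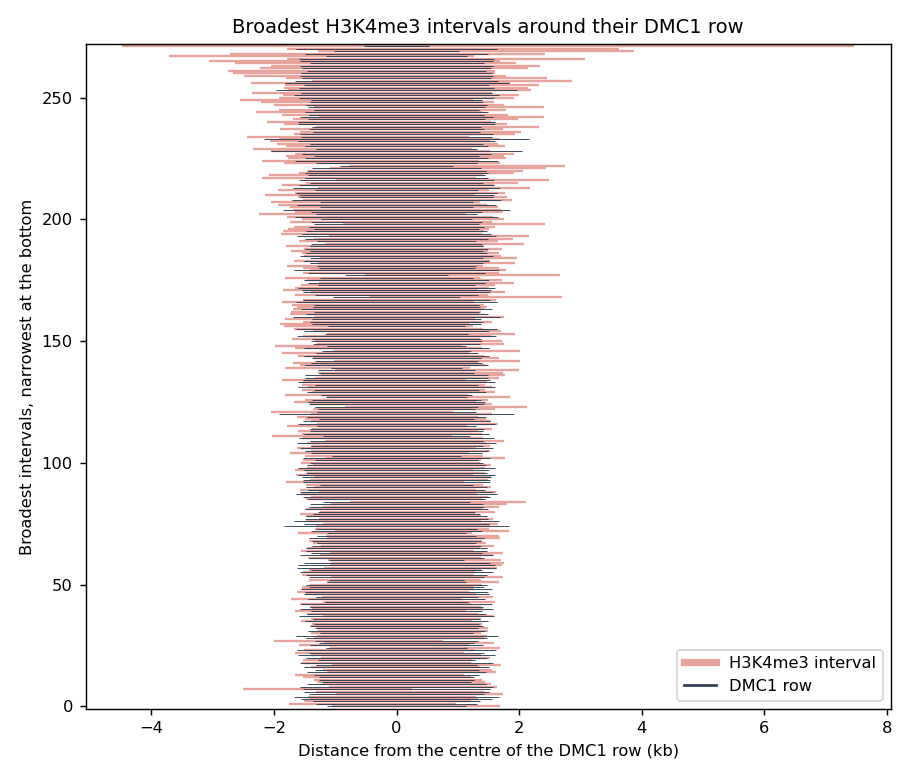
Each of the 272 broadest intervals with a DMC1 site (red) and that site (dark blue), drawn around the centre of the site in kb and ordered by interval width from bottom to top. Intervals spread to both sides of the site, and the widest one runs on 1 side to over 7 kb from the centre of its 1064 bp site.

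DMC1 was higher in the broadest intervals in all 3 genotypes. The median in B6 was 215 RPM (190 to 244, range 7.84 to 1213) at the 272 sites, 63.7 RPM (61.7 to 66.4) at the 4618 sites in other intervals and 31.4 RPM (30.4 to 32.4) at the 3854 autosomal sites in no listed interval. In Ewsr1 CKO the values were 197 RPM (175 to 239), 71.1 RPM and 39.4 RPM. In Prdm9 het they were 43.9 RPM (39.1 to 50.2), 13.3 RPM and 5.48 RPM, on a column whose total was 5.66-fold lower than that of B6. The medians were thus 3.38-fold those in other intervals in B6, 2.77-fold in Ewsr1 CKO and 3.29-fold in Prdm9 het. DMC1 was graded with width and not particular to the set. In the next widest of 20 groups by width (273 intervals) the medians were 168, 157 and 36.2 RPM in the same order of genotypes, and in the one below that 136, 140 and 30.7 RPM. In bulk ChIP-seq, fewer cells with a break at a site and less DMC1 per break cannot be told apart.

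The quartiles of the 272 sites in B6, 119 and 404 RPM, overlapped little with those in other intervals, 32.7 and 124 RPM. These sites were 3.11% of the 8744 autosomal sites and took 11.2% of the autosomal DMC1 sum in B6, 9.12% in Ewsr1 CKO and 10.8% in Prdm9 het. Among the strongest 100 autosomal sites, 56 lay in a broadest interval in B6, 44 in Ewsr1 CKO and 62 in Prdm9 het. The upper 25% of sites by strength, those with a mean of B6 and Ewsr1 CKO of at least 104 RPM, held 209 of the 272 (76.8%), against 32.7% of sites in other intervals and 25% of all by definition. The H3K4me3 measured over the DMC1 site was also higher, 2.47 RPM against 1.19 and 0.547 RPM, so that Ewsr1 CKO DMC1 per H3K4me3 RPM differed less, with medians of 77.1 (66.6 to 90.7), 56.5 and 72.0.

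**Figure D3:**
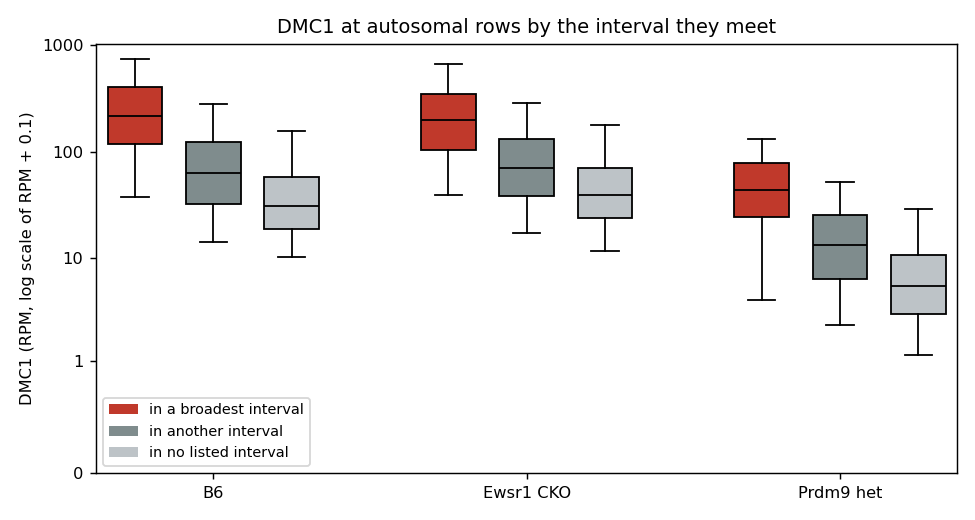
DMC1 in RPM, on a log scale of RPM + 0.1, at autosomal sites in a broadest interval (red, 272 sites), in another interval (dark grey, 4618) and in no listed interval (light grey, 3854), for B6, Ewsr1 CKO and Prdm9 het. Boxes show quartiles and median and whiskers run from the 5th to the 95th percentile; the red median is the highest of the 3 in each genotype, at 215, 197 and 43.9 RPM.

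The strongest site in B6 lay in an interval of 3069 bp on chromosome 1 from 68487539, within Erbb4, a receptor for neuregulins. B6 had 1213 RPM there, Ewsr1 CKO 1086 RPM and Prdm9 het 198 RPM. Next among the 272 came the interval in the kinase gene Braf (chromosome 6 from 39638948, 3185 bp) with 1083, 646 and 151 RPM, and that in Ankfn1 (chromosome 11 from 89609447, 4270 bp) with 1079, 650 and 156 RPM. None of these 3 was among the widest 10, and the Erbb4 interval had a lower H3K4me3 density (0.526 RPM per kb) than the median of the others. Over the 272 sites width had a Spearman's rho of 0.19 with B6 DMC1, and H3K4me3 density had 0.083. Over the other intervals these were 0.50 and 0.16.

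The comparison of Ewsr1 CKO with B6 bears on break-associated DMC1 without EWSR1. Both columns have nearly equal sums, so only the distribution over sites can be compared, and a fall at some sites goes with a rise at others. The ratio of the Ewsr1 CKO to the B6 value, taken as a log2 of RPM + 1, had a median of −0.18 (−0.22 to −0.12) in the broadest intervals, 0.11 in other intervals and 0.25 outside intervals. The ratio declined with width before the threshold, with medians of 0.23 in the narrowest of 20 groups by width, 0.016 in the third widest and −0.073 in the next widest. DMC1 was lower in Ewsr1 CKO at 178 of the 272 sites (65.4%, Wilson 59.6 to 70.8%), against 38.3% in other intervals and 34.4% of all autosomal sites. Of the 272, 40 (14.7%) were at least 1.5-fold lower, against 2.78% of all, and 18 (6.62%) were at least 1.5-fold higher, against 18% of all. If 1 step of the values is 1 read, the median counting error of a log2 ratio was 0.061 here and 0.11 in other intervals. That error covers reads only, and without replicate columns whether the shift exceeds the variation between animals was not tested.

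Since strong sites were more frequent in the set, the comparison was repeated within the upper 25% by strength. There the median was −0.20 (−0.29 to −0.15) at the 209 sites in broadest intervals, −0.00003 (−0.026 to 0.017) at 1509 sites in other intervals and 0.18 at 468 sites outside intervals. The difference from other intervals was −0.29 over all sites and −0.20 among these strong sites.

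Within the set, the ratio fell as mark density rose. Its Spearman's rho was −0.49 with H3K4me3 density and −0.38 with H3K36me3 density over 272 sites. In the other intervals these values were −0.25 and −0.23 over 4624 pairs. With width, whose range the choice of the set cut short, rho was −0.18 in the set and −0.15 in the others. Density was measured in the Ewsr1 CKO cells whose DMC1 is the numerator of the ratio. The 136 sites at or above the median density of the set had a median ratio of −0.33 (−0.43 to −0.29), at 228 RPM (B6) and 187 RPM (Ewsr1 CKO). The 136 below it had 0.04 (−0.04 to 0.09), with 200 and 224 RPM. The interval of the latter ratio includes 0, and that of the former does not.

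**Figure D4:**
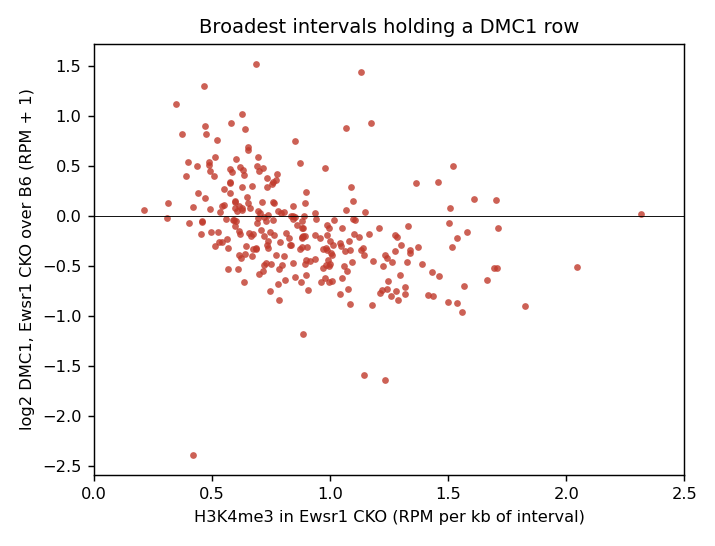
The log2 ratio of DMC1 in Ewsr1 CKO over B6 (RPM + 1) against H3K4me3 density in Ewsr1 CKO (RPM per kb) for the 272 broadest intervals with a DMC1 site, 1 point each. Points above 1 RPM per kb lie largely below 0, with a Spearman's rho of −0.49 over the set.

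Position along the chromosome moved with the ratio too. Within 10 Mb of the last listed DMC1 site of their chromosome lay 26 of the 275 (9.45%) and 8.40% of the others. These 26 had a median ratio of −0.56 (−0.77 to −0.25), an H3K4me3 density of 1.07 RPM per kb and 102 RPM DMC1 in B6. The 246 farther away had −0.16 (−0.20 to −0.07), 0.818 RPM per kb and 233 RPM. Without sites in the distal 10 Mb the difference between broadest and other intervals was −0.28 (−0.32 to −0.19), against −0.29 with them. Density and position moved together, and their separate parts were not tested. Sites in coding genes had −0.21 (−0.31 to −0.16) and those outside −0.04 (−0.18 to 0.04).

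Leaving out sites weaker than the median of all autosomal DMC1 sites, the lowest ratio was near the end of chromosome 19, in an interval from 60537706 to 60541392 within Cacul1. B6 showed 142 RPM of DMC1, Ewsr1 CKO 62.1 RPM and Prdm9 het 20.1 RPM, with a log2 ratio of −1.18 for Ewsr1 CKO over B6 and a counting error of 0.10. The interval in the RNA demethylase gene Fto (chromosome 8 from 91617071) followed with 440, 226 and 112 RPM and −0.96. The Capzb interval named above had 169, 90.3 and 54.9 RPM and −0.90. Among weaker sites, chosen after their values were seen, the last site of chromosome 11 (interval 121742185 to 121745864) reached −2.39, at 33.8 RPM for B6 against 5.65 RPM for Ewsr1 CKO, and the last of chromosome 2 (181808622 to 181813595, in the zinc finger gene Myt1) −1.64, with 33.4 and 10.1 RPM. The chromosome 11 interval had an H3K4me3 density of 0.418 RPM per kb, below the median of the set, and the Myt1 interval 1.23 RPM per kb. Again without sites weaker than the median, the highest ratios were found on chromosome 17 from 91604789 (28.6 and 84.2 RPM, 1.53), chromosome 6 from 59976493 (146 and 363 RPM, 1.31) and chromosome 9 from 6534482 (87.3 and 192 RPM, 1.13). These 3 lay in no annotated gene, and their H3K4me3 densities were 0.687, 0.468 and 0.349 RPM per kb. The chromosome 17 interval also lay near a chromosome end, 1.67 Mb from the last listed DMC1 site. A weaker site, chosen after its values were seen, reached 1.45 in an interval within Garnl3 (chromosome 2 from 33053430 to 33056447), at 13.5 RPM for B6 against 38.5 RPM for Ewsr1 CKO. Its H3K4me3 density, 1.13 RPM per kb, was above the median of the set.

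Prdm9 het cells were compared with B6 to ask about PRDM9 dosage, a comparison that shares its B6 column with the comparison above. As deposited the median log2 ratio was −2.24 in the broadest intervals, −2.20 in other intervals and −2.33 outside intervals, which carries the lower total of the Prdm9 het column. With the columns set to equal totals it was 0.23 (0.15 to 0.31), 0.19 and −0.06. The difference between broadest and other intervals was 0.043. Its interval, −0.032 to 0.12 with the median of the others held fixed, includes 0. Without sites in the distal 10 Mb it was −0.0067 (−0.089 to 0.059). The 26 distal sites of the set had a median of 0.57 (0.33 to 0.79) and the 246 farther away 0.19 (0.11 to 0.26). At least 1.5-fold higher were 68 of the 272 (25%), against 19.2% in other intervals and 14.8% of all autosomal sites. At least 1.5-fold lower were 25 (9.19%), against 7.77% in other intervals and 11.2% of all.

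A small subset was far lower in Prdm9 het. At least 4-fold lower at equal totals were 15 of the 272 (5.51%, Wilson 3.37 to 8.90%), against 1.26% in other intervals (58 of 4618), 1.35% outside intervals (52 of 3854) and 1.43% of all autosomal sites. In the next widest of the 20 groups by width the share was 2.27%. In the upper 25% by strength the counts were 15 of 209 (7.18%) and, in other intervals, 30 of 1509 (1.99%). Of the 10 lowest ratios among all autosomal sites 5 lay in a broadest interval, and of the 50 lowest 11.

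For B6 the median of the 15 sites was 440 RPM, for Ewsr1 CKO 352 RPM and for Prdm9 het 1.25 RPM (range 0.243 to 20.2), whereas the other 257 had 204, 190 and 47.1 RPM. Their H3K4me3 density was 0.986 RPM per kb (0.883 to 1.02), beside 0.812 (0.759 to 0.881) in the rest, and their ratio of Ewsr1 CKO over B6 (−0.20) was near that of the rest (−0.17). The lowest was in the interval within Ttk, a mitotic kinase gene (chromosome 9 from 83858162, 4577 bp), with 766, 674 and 0.454 RPM and a log2 ratio of −7.75. A pair in the protocadherin gene Fat4 on chromosome 3, from 38903494 and 38955179, followed with 640, 590 and 0.638 RPM (−7.12) and 440, 427 and 0.566 RPM (−6.71). The interval in Nrg1, the neuregulin ligand gene (chromosome 8 from 32248048, 4395 bp), had 800, 534 and 1.25 RPM (−6.63).

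The 15 lay on 6 chromosomes (3, 8, 9, 14, 16 and 17), and 8 of them had another of the 15 within 1 Mb. Of 86 other autosomal sites within 1 Mb, 17 were at least 4-fold lower (19.8%, Wilson 12.7 to 29.4%), against 1.43% of all, and the median of the 86 was 0.29 (0.12 to 0.67). At the opposite end, the highest ratios, again without sites weaker than the median, were on chromosome 6 from 14392481 (77.5, 126 and 46.9 RPM, 1.76), within the thyroglobulin gene Tg on chromosome 15 from 66693776 (118, 112 and 61.3 RPM, 1.55) and at the Sptbn5 interval (128, 130 and 63.8 RPM, 1.49).

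**Figure D5:**
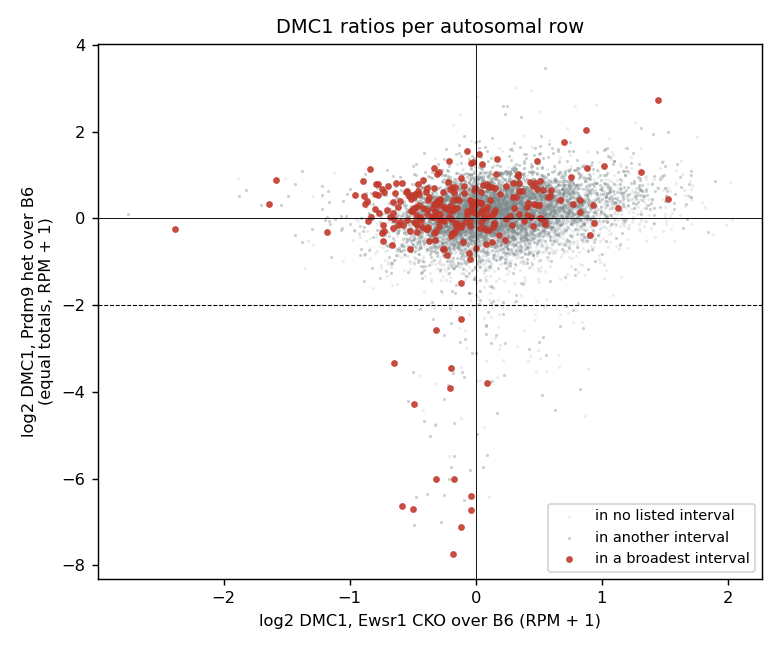
Log2 ratios of DMC1 per autosomal site, Ewsr1 CKO over B6 on the horizontal axis and Prdm9 het over B6 at equal totals on the vertical axis (both RPM + 1, with B6 as the shared denominator), for sites in a broadest interval (red), in another interval or in none (grey). The dashed line marks a 4-fold lower value; 15 red points lie under it, and the red cloud is shifted to the left of the grey one, with a median of −0.18.

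Broadest intervals occurred on all 19 autosomes, from 6 of 341 intervals on chromosome 5 (1.76%) to 11 of 125 on chromosome 19 (8.80%). Their nearest other H3K4me3 interval was a median of 113 kb away (95.6 to 135), against 118 kb (114 to 124) for the others. Their nearest other DMC1 site was 76.5 kb away (66.6 to 91.4), against 79.2 kb (75.9 to 82.4), so spacing did not set them apart.

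Some intervals were listed on several lines with slightly different values, which were averaged. This was so for 29 of the 275 (10.5%), against 2.37% of the others and 2.78% of all, and 1 of the broadest, on chromosome 8 from 106966981 to 106971218 within Sntb2, stood on 12 lines. Repeated lines of an interval differed by at most 0.0250 RPM in H3K4me3. The 29 had a lower H3K4me3 density (0.615 RPM per kb, 0.528 to 0.719) than the 246 listed once (0.877 RPM per kb, 0.809 to 0.902).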

How the data were processed

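DMC1 and histone ChIP-seq of spermatocytes was described from 2 deposited tables of shared sites with 1 RPM column per group (read number scaled by the authors to library size, per the file headers). The submitters' processing notes name BWA 0.5.10, Trimmomatic 0.32 and mm10, the same assembly as GRCm38. The peak caller, duplicate handling, merging of replicates and the rule for common sites are not given in the sources used here. Depth is unknown; the B6 and Ewsr1 CKO DMC1 values were all whole multiples (within 0.02 of a step) of 0.129 and 0.246 RPM, which, if 1 step is 1 read, gives medians of 1674.5 and 803 reads per site in the broadest intervals. Another 4 value columns matched no sample and were not used, and the Prdm9 Set-KO samples and inputs were not analysed here.

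Of 5787 lines, repeated intervals were averaged to 5567. Sites met an interval at 1 bp shared or more. Log2 ratios used a pseudocount of 1 RPM, which understates changes at low values; Prdm9 het was scaled by 5.66 to the B6 total. Shares have Wilson 95% intervals. No test was run, since there is 1 value per group. Named intervals were the 10 widest, the 3 at each extreme of H3K4me3 density and of the mark ratio, the widest without DMC1 and those beside the threshold. Named DMC1 sites were the 3 strongest in B6 and the 3 at each extreme of each ratio among sites of at least median mean. The planned rule for sequences at DMC1 site centres needs a genome, which was not used here; promoter windows came from RefSeq. The starts table held 79.9% of 21896 protein-coding genes and no start of chromosome 18. The members and lists were chosen with earlier results of these data known. The functions were tested on simulated data. Alternatives were other width shares, overlap rules, low-value filters, pseudocounts and scalings, and keeping the X. All calculations ran in Python 3.11.15 with pandas 2.3.3, numpy 2.4.6, scipy 1.17.1 and matplotlib 3.10.9.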

Additional observations from a re-analysis of the deposited data

How the results depend on the processing

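Values here are log2 differences between the broadest and the other intervals unless a percentage is given. Of 95 comparisons with an alternative, 73 stayed within the interval of the reported value, 21 moved out of it and 1 reversed. H3K4me3 density (0.55) moved under none of its 8 alternatives (0.44 to 0.62). With the widest 2%, sites per kb went from −0.74 to −0.92, DMC1 from 1.76 to 2.07 in B6, 1.47 to 1.80 in Ewsr1 CKO and 1.72 to 2.0 in Prdm9 het, and Ewsr1 CKO over B6 from −0.29 to −0.36; with the widest 10%, sites per kb were −0.65. Ratios of sums gave 0.44 for H3K36me3 density (0.60) and −0.026 for H3K36me3 against H3K4me3 (0.065). Without intervals in the lower quartile of H3K36me3 density, H3K36me3 density was 0.42. Without those in the lower quartile of H3K4me3 density, H3K36me3 against H3K4me3 was 0.16, with an interval above 0. Requiring the DMC1 site wholly inside the interval left 31.3% of the broadest intervals with a site and reversed sites per kb to 4.34, because only 43 other intervals contain a whole site; DMC1 was then 3.35, 2.41 and 3.19, Ewsr1 CKO over B6 −0.70 and Prdm9 het over B6 −0.037. Without sites in the lower quartile of strength DMC1 was 1.49, 1.23 and 1.47. As deposited, Prdm9 het over B6 was −0.042 (0.043 at equal totals). In the upper 25% by strength Ewsr1 CKO over B6 was −0.20. The cause of the other shifts was not tested.

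Chosen after seeing the data were the upper 25% by strength, intervals listed once, sites outside the distal 10 Mb and sites not at least 4-fold lower in Prdm9 het. No paired analysis was possible because a deposited column stands for a whole group, and for that reason no replicate was left out. Without replicate columns no difference can be set against variation between animals.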
